A study of Mus musculus with 4 samples.

Results

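The nuclear-encoded subunits of the mitochondrial respiratory chain were followed in mouse spleen RNA. Genes were taken by symbol, as those that begin with Nduf, Uqcr, Cox4 to Cox8 or Atp5 and the 4 genes Sdha, Sdhb, Sdhc and Sdhd, without names that carry a pseudogene suffix. The rule found 91 of the 23763 genes in the deposited table: 39 named for complex I, 8 assembly factors named Ndufaf, 4 of complex II, 8 of complex III, 15 of complex IV and 17 of ATP synthase. The groups were 2 libraries from KLHL3-KI spleens and 2 from wild-type (WT) spleens, all of strain C57BL/6J and all with the treatment given as baseline. KLHL3 is a substrate adaptor of a cullin ubiquitin ligase, and the series asks about potassium handling by red blood cells and kidney. Which allele was knocked in, and the animals' age and sex, are not stated in the labels, which also do not say that the libraries came from separate animals, so the p-values measure only the spread between these samples. Total RNA was depleted of ribosomal RNA and read as directional libraries, with 9586677 and 10933023 reads behind the table in KLHL3-KI replicates 1 and 2 and 8535483 and 8975415 in WT replicates 1 and 2.

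The respiratory chain sits in the inner mitochondrial membrane. Complex I takes electrons from NADH and complex II from succinate, coenzyme Q carries them to complex III, and cytochrome c carries them on to complex IV, which reduces oxygen. Complexes I, III and IV pump protons as they do so, and ATP synthase lets the protons back through its membrane ring while its head makes ATP. Most subunits come from nuclear genes and a few from the mitochondrial genome. In mice the red pulp of the spleen makes red blood cells; their precursors use mitochondria for respiration and for heme synthesis and clear them before they become mature red cells.

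Respiratory chain genes were higher as a group in KLHL3-KI spleen with a median log2 fold change between 0.30 and 0.47 in each of the 5 complexes. Values are given in scaled reads, the whole reads of a gene multiplied by 1 factor per library, and a gene was tested when its mean over the 4 libraries was at least 1. A gene is said to have risen or fallen when limma, fitted across all 16970 genes that met this minimum, gave a Benjamini-Hochberg adjusted p under 0.05 for the log2 fold change of KLHL3-KI over WT. Of the 91 genes, 89 could be tested, and Cox4i2 and Cox7a1 were below the minimum. In the KLHL3-KI libraries 46 rose and 0 fell, whereas of all genes tested 15.2% rose and 7.56% fell, 22.8% in all. At an unadjusted p under 0.05, 61 were higher and 1 was lower. The count test of edgeR also called 46 higher and 0 lower, and DESeq2 called 28 and 0. Of all genes tested edgeR called 2578 higher and 1251 lower, and DESeq2 2064 and 733. The median log2 fold change was 0.40 over the 89 genes, with the middle 50% from 0.26 to 0.49, and -0.01 over all genes tested. Both KLHL3-KI values lay above both WT values for 73 of the 89 genes, an arrangement seen for 32.8% of all genes tested, and both lay below for 2 genes, as for 31.9% of all genes. Among the 43 genes without a call, 27 had both KLHL3-KI values above both WT values and 14 overlapped. Of the genes that rose, 44 had a log2 fold change between 0.3 and 1, and only Cox6b2 and Atp5g2 exceeded 1. By read depth, which follows transcript length as well as level, the genes that rose had a median of 47.8 scaled reads and those without a call 23.6, and their median standard errors were 0.11 and 0.14 on the log2 scale.

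**Figure D1:**
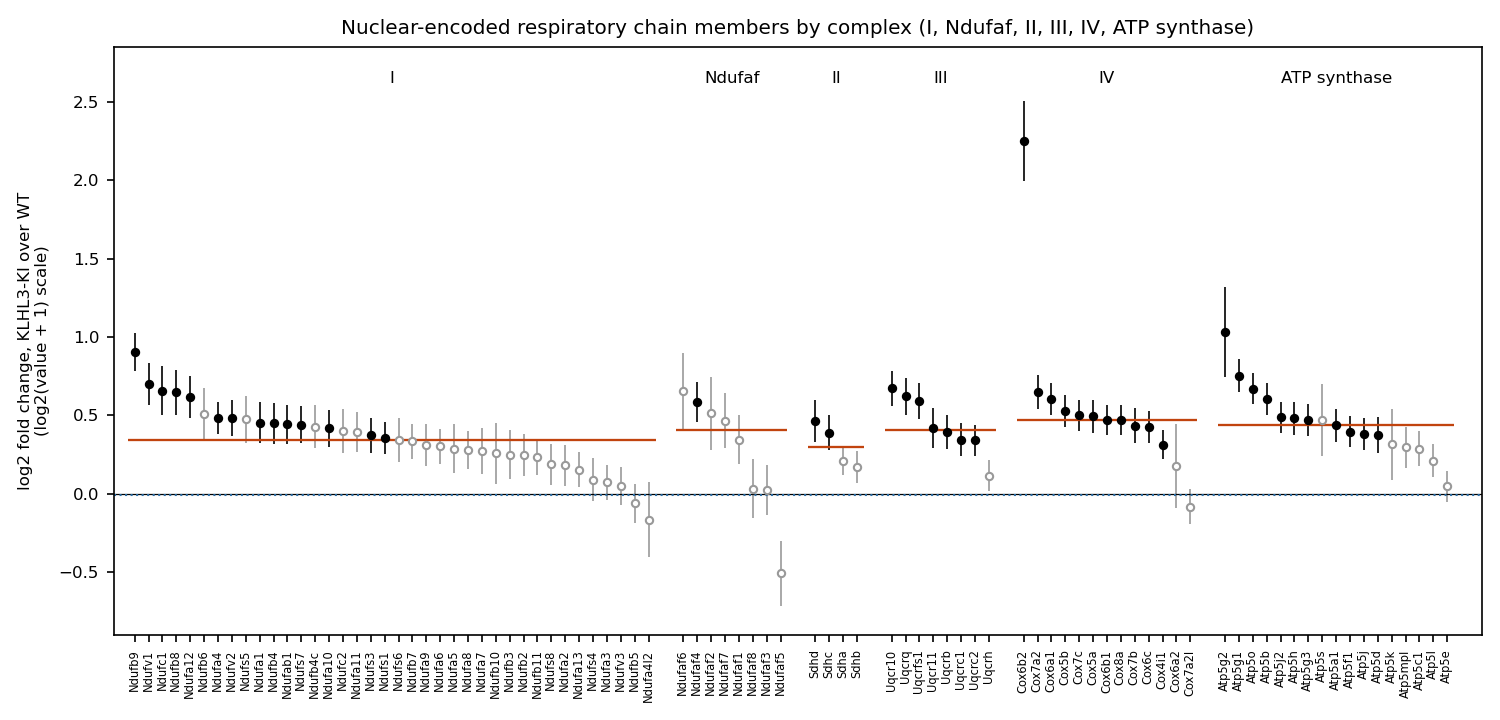
Log2 fold change of KLHL3-KI over WT for the tested genes reported here, grouped by complex, with error bars of 1 standard error from the limma fit. Filled points passed the test and open points did not; the orange line in each complex is the median of all its tested genes and the blue dotted line the median of all genes tested, -0.01. The points of every complex lie mostly above the dotted line, and Cox6b2 is highest at 2.25.

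Together the 91 genes took 0.472% and 0.502% of the reads in the KLHL3-KI libraries, against 0.420% and 0.407% in the WT libraries, a share that does not depend on how the libraries were scaled. Their summed level was 4985 and 5347 in the KLHL3-KI libraries, against 4008 and 3795 in the WT libraries (mean 5166 ± 256 in KLHL3-KI and 3901 ± 151 in WT, SD, n = 2 each), a ratio of 1.32. The groups did not overlap, and an exact permutation test of 2 libraries against 2 cannot give a p below 1 in 3. With 1 library left out, the median log2 fold change of the 89 genes ran from 0.35 without WT replicate 2 to 0.45 without WT replicate 1. Such a fit leaves 1 library in a group, so its counts of calls are not compared. The count of genes that rose was 25 to 27 after equal total reads, after removal of haemoglobin, immunoglobulin and mitochondrial genes and after quantile normalization. Of all genes tested, 1912 of 16978, 2087 of 16771 and 2041 of 16970 rose in those settings, in that order. Those scalings moved the median of all genes to between -0.16 and -0.10 and turned the split of all calls from 2583 higher and 1283 lower into, for equal totals, 1912 and 3126; the difference between the median of the 89 genes and that of all genes stayed between 0.35 and 0.46 in the 18 settings run, which are the values reported and 17 alternatives. In all 18 settings 8 genes rose: Ndufb9, Uqcr10, Cox6a1, Cox6b2, Cox7a2, Atp5b, Atp5g1 and Atp5o.

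Cell type markers moved with the groups as well. All 16 red cell precursor markers rose, with summed levels of 9895 and 11501 in the KLHL3-KI libraries, against 2371 and 1862 in the WT libraries, and none of them was at 0 in any library. All 12 cell cycle markers rose, with sums of 3834 and 4628 in KLHL3-KI and 878 and 764 in WT, and all 10 neutrophil markers rose, with sums of 1463 and 1999 in KLHL3-KI and 159.5 and 73.8 in WT. All 10 T cell markers fell, with sums of 339 and 314 in KLHL3-KI and 605 and 556 in WT, and 9 of 10 B cell markers fell, with sums of 2648 and 2003 in KLHL3-KI and 3459 and 3604 in WT. Of 10 macrophage markers 2 rose, of 6 plasma cell markers 0 rose and 0 fell, and of 6 skeletal muscle markers only 1 reached the minimum, with no call. Of 4 heart and smooth muscle markers 1 rose and 0 fell. In whole spleen RNA a change in the number of cells of a type and a change in RNA per cell cannot be told apart, and the part of these cell types in the respiratory chain result was not tested. Klhl3 itself had 2.53 and 1.36 scaled reads in the KLHL3-KI libraries, against 3.02 and 4.67 in the WT libraries (log2 fold change -0.72, SE 0.27, adjusted p = 0.0895, no call); for a knock-in of unstated design this level does not check the labels.

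The promoters of these genes are shown for 1 gene of each complex, because many nuclear respiratory genes are known to be driven by the factors NRF1 and GABPA, and for Cox6b2, which had the largest fold change. Each is 250 bases long, 220 before to 30 after the annotated start, 5′ to 3′ on the gene's strand, from RefSeq on build GRCm38.p6. Capitals mark the letters GCGCANGCG for NRF1 and CCGGAAG for GABPA, searched on both strands, where the 2 motifs share no letters in any window shown. The genes shown are, in each complex, those with the lowest adjusted p among genes that rose and held either motif. They are Ndufb4 (chr16:37654339-37654588, minus strand), Sdhd (chr9:50603820-50604069, minus strand), Uqcrc1 (chr9:108936428-108936677, plus strand), Cox6a1 (chr5:115348929-115349178, minus strand), Atp5o (chr16:91931601-91931850, minus strand) and Cox6b2 (chr7:4753065-4753314, minus strand).
Ndufb4: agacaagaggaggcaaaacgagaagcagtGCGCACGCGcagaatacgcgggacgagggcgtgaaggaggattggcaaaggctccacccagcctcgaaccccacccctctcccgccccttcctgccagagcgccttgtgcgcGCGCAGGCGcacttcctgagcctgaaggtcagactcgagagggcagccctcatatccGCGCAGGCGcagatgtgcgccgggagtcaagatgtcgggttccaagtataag
Sdhd: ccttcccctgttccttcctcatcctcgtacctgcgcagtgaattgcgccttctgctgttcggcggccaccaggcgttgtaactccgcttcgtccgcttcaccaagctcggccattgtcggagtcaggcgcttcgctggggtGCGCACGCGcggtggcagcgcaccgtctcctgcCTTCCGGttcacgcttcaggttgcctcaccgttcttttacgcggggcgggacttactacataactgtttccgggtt
Uqcrc1: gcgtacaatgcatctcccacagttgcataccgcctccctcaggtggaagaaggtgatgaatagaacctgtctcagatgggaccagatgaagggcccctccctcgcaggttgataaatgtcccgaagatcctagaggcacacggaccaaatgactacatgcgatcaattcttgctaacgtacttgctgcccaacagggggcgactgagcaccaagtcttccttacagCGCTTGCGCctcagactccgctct
Cox6a1: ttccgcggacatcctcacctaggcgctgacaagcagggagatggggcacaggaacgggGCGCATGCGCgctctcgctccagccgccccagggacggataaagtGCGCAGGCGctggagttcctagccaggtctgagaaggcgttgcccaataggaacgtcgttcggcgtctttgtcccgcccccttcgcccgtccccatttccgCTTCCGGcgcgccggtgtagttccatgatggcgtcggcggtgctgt
Atp5o: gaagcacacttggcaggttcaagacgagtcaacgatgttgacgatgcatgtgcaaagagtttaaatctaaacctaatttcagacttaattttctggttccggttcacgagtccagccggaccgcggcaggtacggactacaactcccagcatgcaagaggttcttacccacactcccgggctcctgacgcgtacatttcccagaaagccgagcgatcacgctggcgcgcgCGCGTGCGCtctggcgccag
Cox6b2: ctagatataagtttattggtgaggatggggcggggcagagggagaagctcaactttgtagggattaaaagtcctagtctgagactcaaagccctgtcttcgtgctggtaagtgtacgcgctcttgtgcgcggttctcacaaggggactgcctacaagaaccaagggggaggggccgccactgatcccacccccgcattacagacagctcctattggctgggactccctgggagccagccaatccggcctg

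The Ndufb4 window held the NRF1 letters at 3 places, and the Cox6a1 window held them at -162 and -161, where the sites overlap on opposite strands, and at -117, with GABPA letters at -16, positions counted from the start. In the Sdhd window the NRF1 letters began at -79 and the GABPA letters at -46. The Cox6b2 window held neither, which says only that these letters are not in this stretch. A RefSeq window was matched for 72 of the 91 genes, giving 77 windows. NRF1 letters were in 21 of them (27.3%), against 11.3% of the windows of tested protein-coding genes and 5.77% of all windows. GABPA letters were in 17 (22.1%), against 15.0% and 8.10%. The YY1 letters AAGATGGCG were in 2 (2.60%), against 1.91% and 1.00%. Windows of genes that rose held NRF1 letters in 10 of 38 cases (26.3%) and those of genes without a call in 11 of 38 (28.9%). A match is a string of letters and not a measured binding site.

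Complex I genes encode a hydrophilic arm that oxidises NADH and a membrane arm that pumps protons, and 14 of the 39 rose while 0 fell (median log2 fold change 0.34). The core subunits carry the flavin and the iron-sulfur clusters. Ndufv1 (ENSMUSG00000037916, chromosome 19), the flavin-bearing subunit that binds NADH, had 53.3 and 70.6 scaled reads in the KLHL3-KI libraries, against 37.0 and 37.7 in the WT libraries (log2 fold change 0.70, SE 0.14, adjusted p = 0.00552), and it passed in 16 of the 18 settings. Its KLHL3-KI values were well apart from each other while the WT values were nearly equal. Ndufs1, the largest iron-sulfur subunit, had 72.5 and 75.3 in the KLHL3-KI libraries, against 60.5 and 54.6 in the WT libraries (log2 fold change 0.36, SE 0.10, adjusted p = 0.0324), a rise that passed in 10 settings. Ndufv2, Ndufs3 and Ndufs7, which also hold or support iron-sulfur clusters, rose by 0.48, 0.37 and 0.44 on the log2 scale. Ndufs8 gave no call (log2 fold change 0.19, SE 0.13, adjusted p = 0.343).

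The accessory subunits of complex I surround the core, and of 29 protein-coding ones 8 rose, 21 gave no call and 0 fell. The symbols also bring in Ndufb4c, which GENCODE lists as a processed pseudogene although its name has no such suffix; it is 1 of the 39 genes counted for complex I, with 16.4 and 17.3 in the KLHL3-KI libraries, against 12.1 and 12.5 in the WT libraries, and was not called (log2 fold change 0.43, SE 0.14, adjusted p = 0.0518). Ndufb9 (ENSMUSG00000022354, chromosome 15), a membrane-arm subunit of the LYR protein family, had 49.2 and 59.0 in the KLHL3-KI libraries, against 28.3 and 28.3 in the WT libraries (log2 fold change 0.91, SE 0.12, adjusted p = 6.00e-04), the largest rise in complex I. Both KLHL3-KI libraries were higher by more than the spread within either group, and the call held in all 18 settings. Ndufc1, Ndufb8 and Ndufa12 rose by 0.66, 0.65 and 0.62 on the log2 scale, and Ndufab1, the mitochondrial acyl carrier protein, by 0.44. Ndufb4, whose promoter is printed above, had 19.4 and 20.4 in the KLHL3-KI libraries, against 14.3 and 14.2 in the WT libraries (log2 fold change 0.45, SE 0.13, adjusted p = 0.0358) and passed in 8 of the 18 settings. Ndufb5, another membrane-arm subunit, had 36.5 and 44.6 in the KLHL3-KI libraries, against 42.5 and 41.7 in the WT libraries, and was not called (log2 fold change -0.06, SE 0.12, adjusted p = 0.756). In 15 of the 21 protein-coding accessory subunits without a call both KLHL3-KI values were still above both WT values, and 4 protein-coding complex I genes had an adjusted p between 0.05 and 0.06, all higher. With the threshold at 0.1 the count in complex I was 21. It was 4 to 7 under the 3 scalings named before or without the variance trend, and 6 with DESeq2.

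The symbol pattern also brings in Ndufa4 and its relative Ndufa4l2, which carry complex I names although NDUFA4 is now known as a subunit of complex IV. Ndufa4 had 66.2 and 64.4 in the KLHL3-KI libraries, against 48.6 and 44.2 in the WT libraries (log2 fold change 0.49, SE 0.10, adjusted p = 0.00833). Ndufa4l2, known as a hypoxia-induced relative, was close to the minimum level with 1.21 and 1.17 in the KLHL3-KI libraries, against 1.57 and 1.35 in the WT libraries (log2 fold change -0.17, SE 0.24, adjusted p = 0.663), from 11 to 14 reads per library. Both of its KLHL3-KI values were below both WT values, but the difference was smaller than its standard error.

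The 8 Ndufaf genes encode proteins that help to build complex I but are not part of the finished enzyme. Here 1 rose (12.5%, against 15.2% of all genes tested) and 0 fell, with a median log2 fold change of 0.41 and values from -0.51 to 0.65. Ndufaf4 had 23.2 and 24.7 in the KLHL3-KI libraries, against 16.1 and 15.2 in the WT libraries (log2 fold change 0.59, SE 0.13, adjusted p = 0.00979), and its groups did not overlap. Ndufaf3, which works together with Ndufaf4 in an early step, had 10.2 and 12.5 in the KLHL3-KI libraries, against 11.6 and 10.6 in the WT libraries, with no call (log2 fold change 0.02, SE 0.16, adjusted p = 0.935). Ndufaf6 had 2.53 and 3.99 in the KLHL3-KI libraries, against 1.79 and 1.56 in the WT libraries (log2 fold change 0.65, SE 0.25, adjusted p = 0.0887), a higher mean that did not pass at these low levels. Ndufaf5, which hydroxylates the subunit NDUFS7, had 4.85 and 3.70 in the KLHL3-KI libraries, against 5.71 and 7.27 in the WT libraries (log2 fold change -0.51, SE 0.21, adjusted p = 0.113). It was the gene with the lowest fold change of all 89 and one of 2 with both KLHL3-KI values below both WT values, the other being Ndufa4l2. It passed as lower with equal total reads (adjusted p = 0.0476) and after removal of haemoglobin, immunoglobulin and mitochondrial genes (adjusted p = 0.0446), and its adjusted p ranged from 0.0446 to 0.443 over all settings. With 1 library left out, the log2 fold change of Ndufaf4 ran from 0.54 to 0.63.

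Complex II, succinate dehydrogenase, belongs both to the chain and to the tricarboxylic acid cycle, and 2 of its 4 subunits rose. These were the membrane anchors Sdhc, with 39.9 and 43.6 in the KLHL3-KI libraries, against 32.8 and 30.4 in the WT libraries (log2 fold change 0.39, SE 0.11, adjusted p = 0.0343), and Sdhd, with 44.8 and 55.5 in the KLHL3-KI libraries, against 39.0 and 33.0 in the WT libraries (log2 fold change 0.46, SE 0.14, adjusted p = 0.0362). The catalytic flavoprotein Sdha (ENSMUSG00000021577, chromosome 13) had 187 and 201 in the KLHL3-KI libraries, against 169.7 and 166 in the WT libraries (log2 fold change 0.21, SE 0.09, adjusted p = 0.131). The iron-sulfur subunit Sdhb had 55.2 and 53.4 in the KLHL3-KI libraries, against 48.3 and 47.8 in the WT libraries (log2 fold change 0.17, SE 0.10, adjusted p = 0.252). For all 4 genes both KLHL3-KI values lay above both WT values, and the difference between anchor and catalytic subunits was not tested. The count was 0 with DESeq2, without the variance trend and under those 3 scalings.

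In complex III, which passes electrons from coenzyme Q to cytochrome c, 7 of 8 genes rose and all 8 had both KLHL3-KI values above both WT values (median 0.41). Uqcr10 (ENSMUSG00000059534, chromosome 11), a small membrane subunit, had 38.0 and 37.3 in the KLHL3-KI libraries, against 23.3 and 23.1 in the WT libraries (log2 fold change 0.67, SE 0.11, adjusted p = 0.00232) and rose in all 18 settings. Uqcrq, another small subunit near the coenzyme Q sites, had 39.6 and 45.9 in the KLHL3-KI libraries, against 26.6 and 28.1 in the WT libraries (log2 fold change 0.62, SE 0.12, adjusted p = 0.00510). Uqcrfs1 (ENSMUSG00000038462, chromosome 13), the Rieske iron-sulfur protein that moves electrons to cytochrome c1, had 58.5 and 69.9 in the KLHL3-KI libraries, against 42.2 and 41.9 in the WT libraries (log2 fold change 0.59, SE 0.11, adjusted p = 0.00539), with KLHL3-KI replicate 2 the higher of the pair. The core proteins Uqcrc1 and Uqcrc2 rose as well. Uqcrc1 had 82.4 and 94.1 in the KLHL3-KI libraries, against 67.3 and 70.9 in the WT libraries (log2 fold change 0.35, SE 0.10, adjusted p = 0.0402), and Uqcrc2 had 94.3 and 103 in the KLHL3-KI libraries, against 80.8 and 74.6 in the WT libraries (log2 fold change 0.34, SE 0.10, adjusted p = 0.0357). Uqcrh, the hinge protein that supports the contact between cytochrome c1 and cytochrome c, had 70.8 and 67.6 in the KLHL3-KI libraries, against 66.9 and 60.7 in the WT libraries, and was not called (log2 fold change 0.12, SE 0.10, adjusted p = 0.447). The count was 3 with DESeq2, without the variance trend or under the same 3 scalings.

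Complex IV, cytochrome c oxidase, gave the highest median among the complexes, 0.47, and 11 of its 13 tested genes rose while 0 fell. Cox4i1 (ENSMUSG00000031818, chromosome 8), the regulatory subunit that binds adenine nucleotides, had 137 and 146 in the KLHL3-KI libraries, against 112 and 115 in the WT libraries (log2 fold change 0.31, SE 0.09, adjusted p = 0.0355) and passed in 10 of 18 settings. Cox5a, a matrix-side subunit, had 50.0 and 53.6 in the KLHL3-KI libraries, against 37.0 and 35.9 in the WT libraries (log2 fold change 0.49, SE 0.10, adjusted p = 0.00860). Cox6a1 (ENSMUSG00000041697, chromosome 5), a membrane subunit of most tissues, had 64.1 and 67.8 in the KLHL3-KI libraries, against 42.7 and 43.3 in the WT libraries (log2 fold change 0.60, SE 0.10, adjusted p = 0.00229), and Cox7a2 (ENSMUSG00000032330, chromosome 9) had 55.9 and 57.8 in the KLHL3-KI libraries, against 37.8 and 34.0 in the WT libraries (log2 fold change 0.65, SE 0.11, adjusted p = 0.00228); both rose in all 18 settings. Cox6b1, Cox8a and Cox7b rose by 0.47, 0.47 and 0.44 on the log2 scale. Cox7a2l, a relative of Cox7a2, had 134 and 114 in the KLHL3-KI libraries, against 140.3 and 123 in the WT libraries. Its groups overlapped and it was not called (log2 fold change -0.08, SE 0.11, adjusted p = 0.640). The count in complex IV was 6 without the variance trend.

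Several complex IV subunits exist in a common form and in a form of restricted tissues. Cox6b2 (ENSMUSG00000051811, chromosome 7), known as the testis form of Cox6b1, had 8.48 and 9.64 scaled reads in the KLHL3-KI libraries, against 0.671 and 1.66 in the WT libraries (log2 fold change 2.25, SE 0.25, adjusted p = 2.14e-04), which corresponds to 77 and 99 reads in KLHL3-KI and 6 and 16 in WT. The mean level was 7.77 times that of WT; it was 13.5 times without WT replicate 2 and 5.46 times without WT replicate 1. Both WT values were low and differed from each other, while the KLHL3-KI values were close together. Its log2 fold change was 2.97 with a pseudocount of 0.1 and 1.19 with a pseudocount of 5, and it passed in all 18 settings. Per kilobase of transcript, Cox6b2 stayed below its partner: it averaged 15.5 scaled reads per kilobase in KLHL3-KI and 1.99 in WT, and Cox6b1 averaged 137 in KLHL3-KI and 98.2 in WT. The heart and muscle form Cox6a2 had 1.54 and 2.73 in the KLHL3-KI libraries, against 2.01 and 1.45 in the WT libraries, with overlapping groups (log2 fold change 0.18, SE 0.27, adjusted p = 0.673). Cox4i2, the lung form, which low oxygen induces, had 0.441 and 0.195 in the KLHL3-KI libraries, against 0.559 and 0.208 in the WT libraries, and the muscle form Cox7a1 had 0.220 and 0.0974 in the KLHL3-KI libraries, against 0.224 and 0 in the WT libraries; neither could be tested, and both rested on at most 5 reads in a library.

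**Figure D2:**
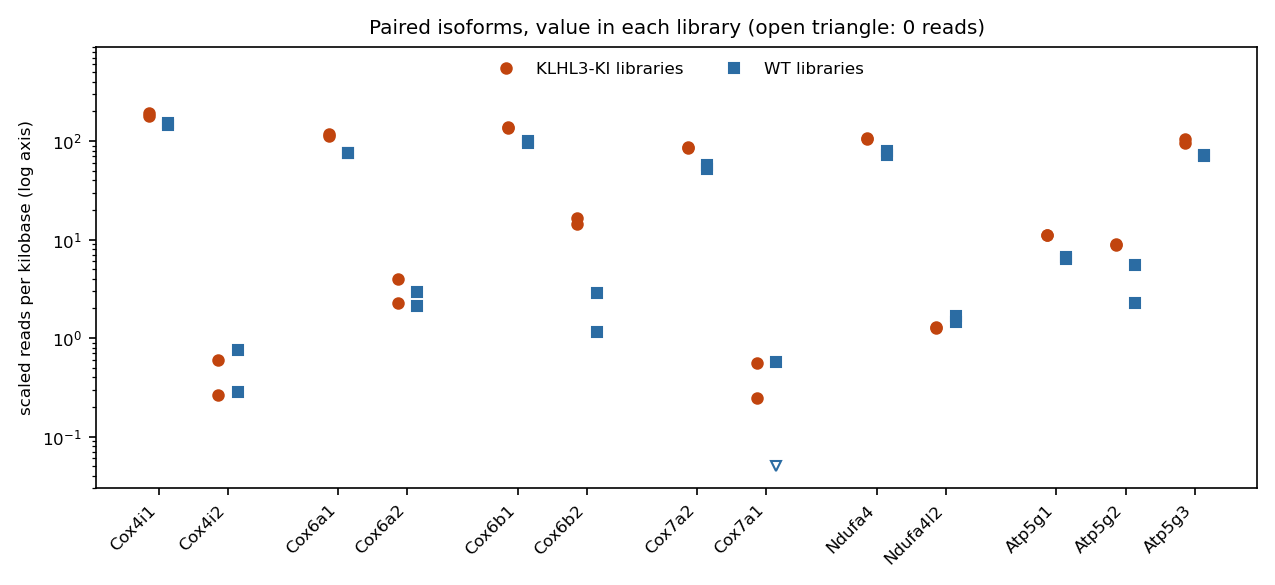
Scaled reads per kilobase of transcript, on a log axis, for isoform pairs of complex IV, for Ndufa4 and Ndufa4l2, and for the 3 c-ring genes of ATP synthase, with KLHL3-KI circles left of WT squares, 1 point per library. An open triangle stands for 0 reads. Cox6b2 is the restricted form whose groups lie farthest apart, with means of 15.5 in KLHL3-KI and 1.99 in WT.

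For ATP synthase 11 of 17 genes rose, 0 fell and all 17 had a positive log2 fold change (median 0.44). Of the 5 genes of the head and central stalk, 3 rose. Atp5b (ENSMUSG00000025393, chromosome 10), the catalytic beta subunit and the most abundant of the 91 per kilobase of transcript, had 579 and 677 scaled reads in the KLHL3-KI libraries, against 422 and 402 in the WT libraries (log2 fold change 0.60, SE 0.10, adjusted p = 0.00284) and rose in all 18 settings. Atp5a1, the alpha subunit that alternates with beta in the head, had 390.4 and 462 in the KLHL3-KI libraries, against 313 and 314 in the WT libraries (log2 fold change 0.44, SE 0.10, adjusted p = 0.0143) and passed in 13. In both genes KLHL3-KI replicate 2 was the highest library. The gamma subunit Atp5c1, which turns inside the head, was not called (log2 fold change 0.29, SE 0.11, adjusted p = 0.0966), and the epsilon subunit Atp5e had 56.3 and 54.0 in the KLHL3-KI libraries, against 54.3 and 52.3 in the WT libraries, with overlapping groups (log2 fold change 0.05, SE 0.10, adjusted p = 0.759).

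The rotating ring in the membrane is made of identical copies of subunit c, which 3 genes encode with different import signals, and all 3 rose. Atp5g1 (ENSMUSG00000006057, chromosome 11) had 52.3 and 52.2 in the KLHL3-KI libraries, against 29.9 and 31.3 in the WT libraries (log2 fold change 0.75, SE 0.10, adjusted p = 8.30e-04), a rise in all 18 settings with almost no spread between the KLHL3-KI libraries. Atp5g3 had 68.3 and 75.9 in the KLHL3-KI libraries, against 51.5 and 52.0 in the WT libraries (log2 fold change 0.47, SE 0.10, adjusted p = 0.00959). Atp5g2 had 6.61 and 6.43 in the KLHL3-KI libraries, against 1.68 and 4.05 in the WT libraries (log2 fold change 1.03, SE 0.28, adjusted p = 0.0284), with WT values far apart; its call was lost without WT replicate 1, where the log2 fold change was 0.57 and the adjusted p 0.153, with DESeq2 and without the variance trend. All 4 genes of the peripheral stalk, which holds the head still, rose. Atp5o (ENSMUSG00000022956, chromosome 16), the subunit at the top of the stalk, had 80.1 and 84.6 in the KLHL3-KI libraries, against 53.0 and 49.7 in the WT libraries (log2 fold change 0.67, SE 0.10, adjusted p = 0.00118), in all 18 settings, and Atp5f1, Atp5h and Atp5j rose by 0.40, 0.48 and 0.38 on the log2 scale. Of 4 small membrane subunits 1 rose, Atp5j2, by 0.49. Atp5l had 77.9 and 70.7 in the KLHL3-KI libraries, against 67.0 and 60.9 in the WT libraries, and was not called (log2 fold change 0.21, SE 0.10, adjusted p = 0.177). The ATP synthase count was 4 without the variance trend and 7 with equal total reads.

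Summed by complex, the KLHL3-KI libraries were above the WT libraries throughout. The sums for ATP synthase were 1902 and 2088 in the KLHL3-KI libraries, against 1471 and 1402 in the WT libraries (ratio 1.39). Complex III had 449 and 487 in the KLHL3-KI libraries, against 359 and 348 in the WT libraries (ratio 1.32), and complex IV had 899.7 and 913 in the KLHL3-KI libraries, against 703 and 677 in the WT libraries (ratio 1.31). Complex I had 1333 and 1422 in the KLHL3-KI libraries, against 1123 and 1028 in the WT libraries (ratio 1.28), and complex II had 327 and 353 in the KLHL3-KI libraries, against 289.9 and 277 in the WT libraries (ratio 1.20). By this ratio ATP synthase stood highest and complex II lowest, but differences between complexes were not tested. The sum over all genes of the table had a ratio of 1.12 on this scale. With equal total reads the ratios were lower, 1.24 for ATP synthase, 1.14 for complex I and 1.07 for complex II. Levels per kilobase used the longest transcript marked as principal for each gene, or the longest transcript where none was marked. The order of genes can depend on this choice. Per kilobase of transcript Atp5b was highest, with a mean of 328 scaled reads in KLHL3-KI and 215 in WT. Cox4i1 followed with 185 in KLHL3-KI and 149 in WT, and Atp5a1 with 173 in KLHL3-KI and 127 in WT. At the low end stood Cox7a1 and Cox4i2, both under 1 scaled read per kilobase in every library.

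**Figure D3:**
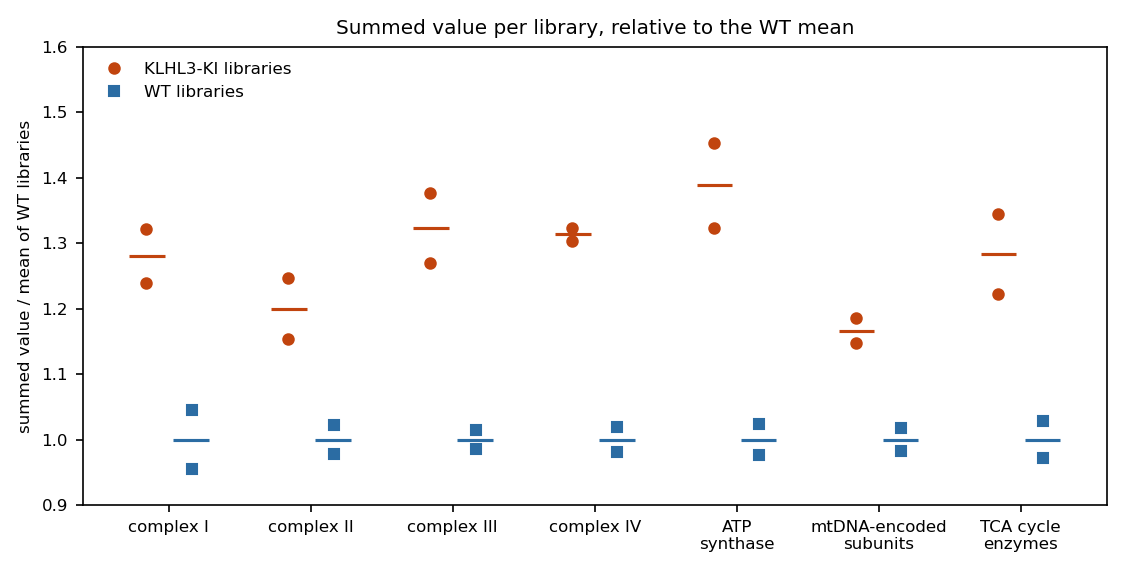
Summed scaled reads of each complex, of the mitochondrially encoded subunits and of the tricarboxylic acid cycle enzymes in each library, divided by the WT mean of the same sum, with KLHL3-KI circles left of WT squares and lines at the group means; the vertical axis starts at 0.9. In every complex both KLHL3-KI points lie above both WT points, with mean ratios from 1.20 for complex II to 1.39 for ATP synthase, beside 1.12 for the sum over all genes; the points are also apart for the mitochondrially encoded sum, with a ratio of 1.17, and for the tricarboxylic acid cycle sum, with a ratio of 1.28.

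Other genes of oxidative metabolism moved unevenly. Atpif1 (ENSMUSG00000054428), the inhibitor that binds ATP synthase and is required for heme synthesis in zebrafish red cells, had 139.6 and 161 scaled reads in the KLHL3-KI libraries, against 44.5 and 32.2 in the WT libraries (log2 fold change 1.96, SE 0.15, adjusted p = 1.57e-05). Its log2 fold change was above that of each ATP synthase subunit, a difference that was not tested, and its groups lay far apart. Cyc1, the cytochrome c1 subunit of complex III that the symbol patterns miss, had 50.7 and 63.0 in the KLHL3-KI libraries, against 35.1 and 37.7 in the WT libraries (log2 fold change 0.62, SE 0.13, adjusted p = 0.00679), and Usmg5, a small ATP synthase subunit, rose by 0.56 on the log2 scale. Dmac2, needed to build the distal membrane arm of complex I, had 21.1 and 22.4 in the KLHL3-KI libraries, against 31.4 and 38.1 in the WT libraries, and fell (log2 fold change -0.65, SE 0.13, adjusted p = 0.00679). Cytochrome c itself, Cycs, had 48.2 and 49.5 in the KLHL3-KI libraries, against 35.4 and 29.3 in the WT libraries (log2 fold change 0.59, SE 0.12, adjusted p = 0.00734). With Coq10b, a coenzyme Q chaperone that rose by 0.52, it made 2 of 15 genes of the cytochrome c and coenzyme Q list that rose (13.3%, against 15.2% of all genes tested).

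Dmac2 was counted above with the subunits that the patterns miss, and not in the list of other assembly factors. The genes of that list were mostly without a call: 2 of 42 rose (4.76%, against 15.2% of all genes tested) and 0 fell, with a median of 0.10. They were Cmc2, with 13.2 and 16.1 in the KLHL3-KI libraries, against 6.60 and 5.09 in the WT libraries (log2 fold change 1.20, SE 0.18, adjusted p = 0.00145), and Cox11, a copper chaperone for complex IV, with 8.59 and 10.1 in the KLHL3-KI libraries, against 5.71 and 4.57 in the WT libraries (log2 fold change 0.76, SE 0.19, adjusted p = 0.0171). Of the 13 subunits encoded by the mitochondrial genome, 1 rose (7.69%, against 15.2% of all genes tested), mt-Nd6 by 0.48, and 0 fell (median 0.25). The gene mt-Co2 is listed at 0 in 3 libraries and is not read further. Together the 13 took 1.25% and 1.20% of reads in the KLHL3-KI libraries, against 1.19% and 1.18% in the WT libraries. Their summed ratio was 1.17, beside 1.12 for the sum over all genes. Both KLHL3-KI values lay above both WT values for 9 of the 13, as for 32.8% of all genes tested. Both lay below for 1, as for 31.9% of all genes tested. Of 14 tricarboxylic acid cycle enzymes 6 rose (42.9%, against 15.2% of all genes tested) and 0 fell (median 0.25). Idh3a, of the NAD-linked isocitrate dehydrogenase, had 56.3 and 59.7 in the KLHL3-KI libraries, against 36.1 and 30.1 in the WT libraries (log2 fold change 0.79, SE 0.12, adjusted p = 0.00132), and Dlst, of the oxoglutarate dehydrogenase, had 146 and 161 in the KLHL3-KI libraries, against 107 and 101 in the WT libraries (log2 fold change 0.56, SE 0.10, adjusted p = 0.00291).

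Of 16 regulators of nuclear respiratory and mitochondrial genes, 1 rose and 1 fell, 6.25% each, against 15.2% and 7.56% of all genes tested. Nrf1, whose motif letters are marked in the promoters above, had 75.8 and 81.2 in the KLHL3-KI libraries, against 58.0 and 60.7 in the WT libraries (log2 fold change 0.40, SE 0.10, adjusted p = 0.0174). Esrra, a nuclear receptor that acts on the same gene class, had 27.0 and 22.1 in the KLHL3-KI libraries, against 33.5 and 42.1 in the WT libraries, and fell (log2 fold change -0.60, SE 0.15, adjusted p = 0.0175). Gabpa had 76.5 and 78.2 in the KLHL3-KI libraries, against 67.9 and 68.1 in the WT libraries (log2 fold change 0.18, SE 0.09, adjusted p = 0.193). The coactivators Ppargc1a and Ppargc1b and the mitochondrial transcription factor Tfam gave no call, at -0.24, -0.25 and -0.02 on the log2 scale. Over these 6 lists together 15 of 105 tested genes rose (14.3%) and 2 fell (1.90%), so the share that rose was close to the 15.2% of all genes tested. By list the share that rose ran from 4.76% for the other assembly factors to 60.0% for the 5 subunits that the patterns miss. It was 42.9% for the tricarboxylic acid cycle enzymes.

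**Figure D4:**
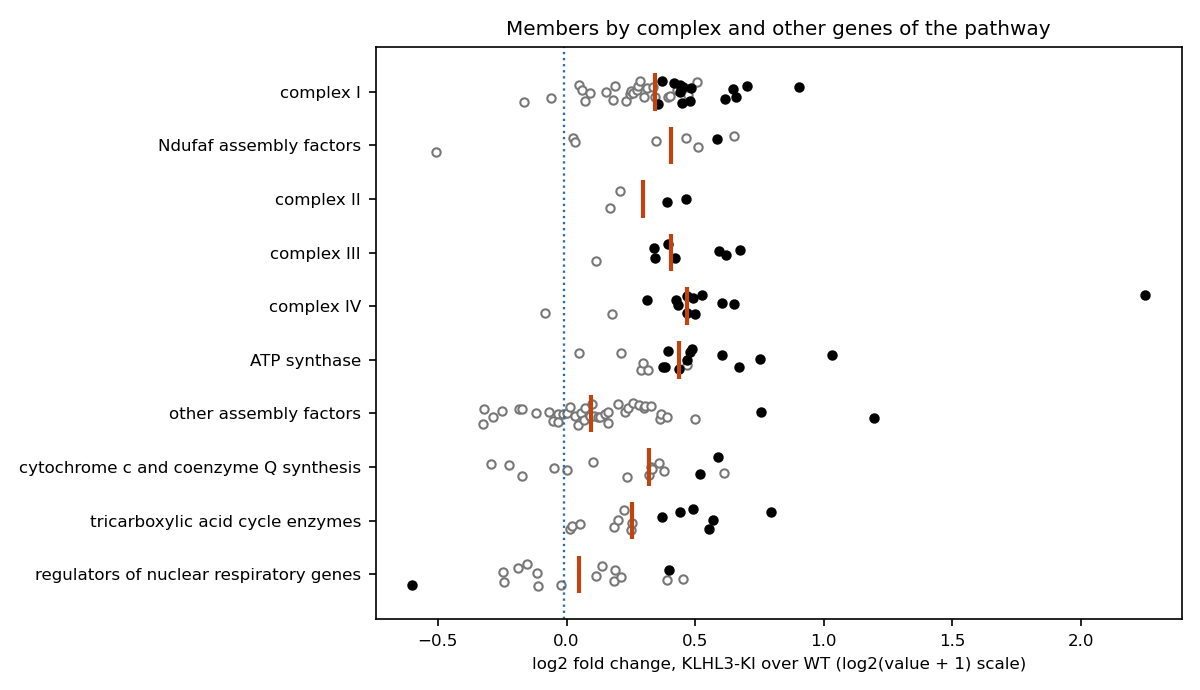
Log2 fold change of KLHL3-KI over WT for the members by complex and for 4 other lists (assembly factors, cytochrome c and coenzyme Q synthesis, tricarboxylic acid cycle enzymes and regulators), 1 point per gene, filled where limma called the gene and open where it did not, with an orange bar at each list's median. The dotted line is the median of all genes tested, -0.01. Of the genes plotted Cox6b2 of complex IV lies farthest right at 2.25, and Esrra at -0.60 is the called regulator below 0.

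Sequence copies and naming touched some of the genes. A stretch of at least 200 bases at 95% identity or more occurs in a transcript of another gene for 24 of the 89 tested genes, among them Ndufb9, Atp5g1, Atp5g2, Atp5o and Cox7a2l, and how the counting shared such reads is not stated, so their values are uncertain. Of these 24, 15 rose (median 0.43), and of the other 65, 31 rose (median 0.38). Cox6b2, Uqcr10, Cox6a1, Cox7a2 and Atp5b have no such copy. The rule left out 2 matches by their suffix. Ndufab1-ps was below the minimum, and Ndufb1-ps, which RefSeq names Ndufb1 and lists as protein coding, had 28.4 and 27.2 scaled reads in the KLHL3-KI libraries, against 19.1 and 18.7 in the WT libraries (log2 fold change 0.53, SE 0.12, adjusted p = 0.0116). GENCODE lists Ndufb1-ps as a long non-coding RNA of a bidirectional promoter. Leaving out the Ndufaf genes and Atp5s, which are not structural subunits, and the pseudogene Ndufb4c, 45 of 79 genes rose. Without Ndufb4c alone the count was 46 of 88.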

How the data were processed

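RNA of 4 spleen samples was sequenced, with groups and replicates named as in the titles. Per the submitters' processing notes, Trimmomatic 0.38, Bowtie2, RSEM 1.3.0 and edgeR were used with build GRCm39; no source used here gives their roles or settings. The authors deposited a normalized signal per gene and library, in which 100% of values were whole multiples of 1 read within 0.001, so whole reads were recovered by division: 9586677 and 10933023 in KLHL3-KI replicates 1 and 2, and 8535483 and 8975415 in WT replicates 1 and 2. Replicates differed by more than counting error (chi-square over degrees of freedom, 8.52 within KLHL3-KI and 4.75 within WT), and n = 2 per group limits the precision. Names came from GENCODE M21 on GRCm38 (99.4% of identifiers), so no coordinates are given for the table's genes.

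Genes with a mean of at least 1 (16970) were compared with limma 3.58.1 in R 4.3.3 on log2(value + 1), two-sided, with a mean-variance trend and Benjamini-Hochberg adjustment over all of them; adding 1 understates fold changes of low genes. Alternatives were edgeR 4.0.16 (quasi-likelihood, TMM) and DESeq2 1.42.0 on recovered reads, pseudocounts of 0.1 and 5, no minimum and a minimum of 5, 4 other scalings, no variance trend, robust variances, a threshold of 0.1, a replicate block, leaving out each library and structural subunits only. Transcripts were searched for copies with blastn 2.17.0, an alternative added after seeing the data, as was the count over protein-coding genes only. The members and lists were chosen with earlier results of these data known. Named genes were the 2 highest and 2 lowest fold changes in each complex, signature subunits, isoform sets, the ATP synthase inhibitor, the 2 lowest p-values in each other list and 5 regulators; the remaining names were chosen after their values were seen. A gene that this rule includes is counted in its group but not reported here. The fit was tested on simulated data.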

Additional observations from a re-analysis of the deposited data

How the results depend on the processing

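The direction of the result for the 89 genes as a group held in every setting run, while the number of calls did not; the cause of these differences was not tested. The count of genes that rose, 46 as reported, was 28 with DESeq2, 25 with equal total reads, 27 after removal of the haemoglobin, immunoglobulin and mitochondrial genes, 26 with quantile normalization and 18 with no trend in the variance model, and 10 to 48 when 1 library was left out. With no minimum, a minimum of 5, pseudocounts of 0.1 and 5, edgeR, median-ratio rescaling, robust variances and a threshold of 0.1 it was 42 to 56. The count that fell was 1 with equal total reads and 1 with those genes removed. The median log2 fold change was 0.23, 0.26 and 0.27 with equal totals, removal and quantile normalization. For complex I the count was 6 with DESeq2, 6, 7 and 6 under those 3 scalings, 4 without a trend and 1 to 15 with a library left out. For complex II it was 0 with DESeq2, with the 3 scalings and without a trend, and 0 to 2 with a library left out; for complex III it was 3 in all of those settings and 1 to 6 with a library left out. For complex IV it was 6 without a trend and 3 to 11 with a library left out, and for ATP synthase 7 with equal totals, 4 without a trend and 4 to 11 with a library left out. For the Ndufaf genes it was 3 at the threshold of 0.1 and 0 to 3 with a library left out. Among the other lists, 8 rose without a trend, 24 at the threshold of 0.1 and 5 to 21 with a library left out, and 7, 6, 5, 1 and 4 fell with equal totals, removal, quantile normalization, no trend and the threshold of 0.1, with 0 to 2 when a library was left out. Under equal totals, removal and quantile normalization, the summed ratio of KLHL3-KI over WT was 1.18, 1.20 and 1.19 for all members together. In the same order it was 1.14, 1.16 and 1.16 for complex I and 1.07, 1.09 and 1.08 for complex II. It was 1.18, 1.20 and 1.20 for complex III, 1.17, 1.19 and 1.19 for complex IV, and 1.24, 1.26 and 1.24 for ATP synthase. For the Ndufaf genes it was 1.12 with equal totals and 1.15 after removal. The genes named here, whose sign turned, had no call as reported. Under equal totals, removal and quantile normalization Ndufaf3 gave a log2 fold change of -0.131, -0.103 and -0.0449, Uqcrh -0.0498, -0.0201 and -0.0329, and Atp5e -0.117, -0.0872 and -0.103. With 1 library left out, the values ran from -0.203 to 0.0809 for Ndufb5, from -0.106 to 0.154 for Ndufaf3, from -0.0972 to 0.455 for Cox6a2 and from -0.196 to 0.0318 for Cox7a2l. Where 1 library was left out, its group's lone library is assumed to vary like the others.

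The labels do not say whether replicate numbers shared by the groups pair the libraries. Deviations of same-numbered libraries from their group means had a correlation of -0.03 across genes. With 2 libraries per group this value cannot exclude a pairing. With the replicate number as a block, 49 of the 89 genes rose and 0 fell.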
